A study of Mus musculus with 31 samples.

Results

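Inhba, Nptx2, Bdnf, Vgf, Scg2 and Penk encode secreted proteins and peptide precursors whose transcripts are known to rise hours after neurons fire strongly, as in a seizure. These 6 genes were followed among the 15648 genes measured by bulk RNA-seq in the left hippocampus of 31 mice. They were chosen by symbol, with their course at 5 days already known, so their own levels, fold changes and FDRs are given as a description and are not used as evidence. All mice were adult OT-I/Rag1-/- animals, which carry a transgenic T cell receptor for an ovalbumin (OVA) peptide and make no other mature T or B cells. Both dorsal CA1 regions received rAAV-hSyn-OVA-mCherry (rAAV-OVA) or rAAV-hSyn-mCherry (rAAV-control), so OVA or mCherry was made under the neuronal hSyn promoter, and all mice were given ketoprofen as an analgesic. Tissue was taken after 2, 5, 8 or 28 days, with 4 mice per vector at each time point except 3 rAAV-control mice at 8 days. Batch 1 held every mouse taken at 5 and 8 days, while the groups at 2 and 28 days were each made of 2 mice from batch 1 and 2 from batch 2. The labels give no record of seizures for single mice.

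Strong firing opens calcium channels in a neuron, and calcium signals activate CREB and related factors that first switch on immediate early genes such as Fos and Npas4. A later wave of transcripts follows, many of them for proteins that leave the cell and act on synapses, survival or excitability. Inhba encodes the activin A subunit, Nptx2 a pentraxin that gathers AMPA receptors at synapses, and Bdnf the neurotrophin that binds TrkB. Vgf and Scg2 encode granins, which are stored in dense-core vesicles and cut into peptides, and Penk encodes the precursor of the enkephalins, the endogenous opioids of mossy fibres and some interneurons.

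Promoter windows were at hand for 3 of the 6 genes, Scg2, Bdnf and Inhba, in RefSeq of build GRCm38.p6, and they are shown because CREB-type sites are the known route from firing to this class of gene. The 250 bases before the start were searched on both strands for the CRE (TGACGTCA), its half-site (TGACG, also contained in the CRE), the AP-1 site (TGANTCA) and the EGR site (GCGTGGGCG). Capitals mark these matches. The counts are per gene, so transcripts from the 7 Bdnf starts listed were not separated, and the start printed is the only one of the 7 with a half-site.
Scg2, chr1:79440027-79440276, minus strand: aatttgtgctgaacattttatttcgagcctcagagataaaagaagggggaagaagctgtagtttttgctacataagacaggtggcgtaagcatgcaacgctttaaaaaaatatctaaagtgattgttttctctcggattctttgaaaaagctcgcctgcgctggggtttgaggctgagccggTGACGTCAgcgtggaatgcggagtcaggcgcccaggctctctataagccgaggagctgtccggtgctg
Bdnf, chr2:109692186-109692435, plus strand: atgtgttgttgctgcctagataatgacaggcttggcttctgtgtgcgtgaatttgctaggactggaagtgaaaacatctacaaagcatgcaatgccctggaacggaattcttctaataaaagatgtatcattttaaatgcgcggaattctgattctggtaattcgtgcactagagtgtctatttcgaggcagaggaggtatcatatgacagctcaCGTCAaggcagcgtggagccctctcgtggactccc
Inhba, chr13:16011601-16011850, plus strand: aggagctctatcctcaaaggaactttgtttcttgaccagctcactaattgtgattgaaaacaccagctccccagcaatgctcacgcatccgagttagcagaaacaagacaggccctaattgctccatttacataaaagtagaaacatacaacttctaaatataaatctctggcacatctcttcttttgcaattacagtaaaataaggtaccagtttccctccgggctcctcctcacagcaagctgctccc
The Scg2 window held a full CRE 68 to 61 bases before the start, and the Bdnf window a half-site on the minus strand 35 to 31 bases before it. No match to any of the 4 motifs was found in the Inhba window. Over all 32851 windows of this length, 1.55% held the full CRE, 17.8% the half-site, 6.75% the AP-1 site and 0.536% the EGR site. These shares are for single windows, so that of the half-site is no background for the Bdnf start, which was picked from 7 for its match. Another of the 7 Bdnf windows held an AP-1 site 152 to 146 bases before its start.

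The libraries held between 19046977 and 57407902 counts (median 27024978), and each of the 6 genes had at least 15 counts in every mouse. Values are given as CPM, each count relative to its library's total, scaled by TMM factors of 0.897 to 1.11. The 9 markers of CA1 pyramidal cells and dentate granule cells were above 0 in every mouse, but the table holds only genes counted in many of the mice, so this does not show that a sample was free of other tissue. Mouse D844 (rAAV-OVA, 28 days, batch 2) stood apart. Its 5 striatal markers summed to 460.3 CPM, against 16.2 to 25.9 CPM in the other 3 mice of its group, so the main results at 28 days are given with and without it. Mouse D720 (rAAV-control, 8 days) had 39.6 CPM of summed T cell markers against 4.14 and 4.97 CPM in the other controls of that day, and calls at 8 days that change without it are named as such. In bulk tissue, fewer cells of a type and less RNA per cell cannot be told apart.

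At 5 days the 6 genes had their highest levels in rAAV-OVA mice, with the single exception of Penk in mouse D844. Inhba and Nptx2 stood far above every other mouse, while Bdnf, Vgf, Scg2 and Penk were higher by a smaller factor. A gene was counted as a DEG (differentially expressed gene) with FDR no higher than 0.05 and Log2FC of 0.66 or more in either direction, from edgeR's quasi-likelihood test over all genes. By these limits 4 of the 6 genes were increased at 5 days, against 9.56% of all genes, and the groups did not overlap for 5 of the 6, against 21% of all genes. At 2 and 8 days 0 of the 6 passed, against 0% and 9.94% of all genes in either direction; at 2 days 9.13% of all genes had an unadjusted p under 0.05, and DESeq2 called 10 genes. At 28 days 1 was increased and 1 decreased, against 12.7% and 4.86% of all genes; without D844 it was 0 and 3, against 12.3% and 2.41%. Their median Log2FC was 1.24 at 5 days, where the median of all genes was -0.01, and it was -0.24 at 8 days and -0.12 at 28 days. Without D844 it was 0.70 at 5 days and -0.65 at 28 days, and without D720 it was 0.06 at 8 days. Nothing is read from these shares, because the genes were chosen on the same comparison.

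**Figure D1:**
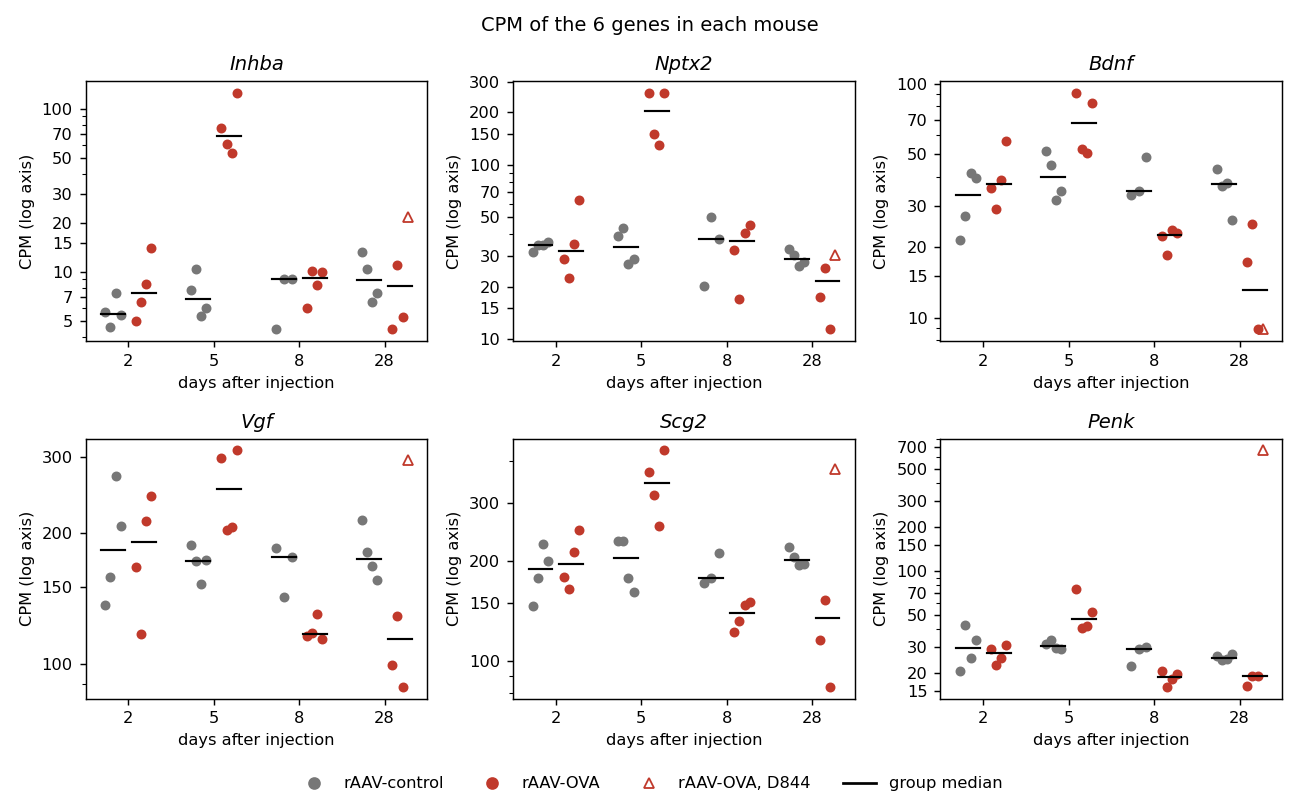
CPM of each gene on a log axis against days after injection; every point is a mouse, grey for rAAV-control and red for rAAV-OVA, the open triangle is mouse D844 and black bars are group medians. The 4 rAAV-OVA mice at 5 days lie between 53.6 and 126 CPM for Inhba, above all other mice, and D844 lies at 668 CPM for Penk.

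Inhba had the largest change. The rAAV-OVA mice at 5 days had 76.8, 60.6, 53.6 and 126 CPM, and the rAAV-control mice 7.70, 10.4, 5.38 and 5.97 CPM. The lowest of the 4 rAAV-OVA mice was thus above all other 27 mice, of which D844 had the most with 21.6 CPM; without D844 the most was 13.99 CPM, in a rAAV-OVA mouse at 2 days. The mean of 79.2 ± 32.5 CPM (SD, n = 4) was 10.7 times the control mean, and the Log2FC was 3.58 (SE 0.42). By 8 days the rAAV-OVA mice had 5.95, 10.2, 8.27 and 9.94 CPM, within 4.47 to 9.07 CPM of the controls but for the 2 highest, and the Log2FC was 0.40 (SE 0.42). At 28 days it was 0.16 (SE 0.38) with all mice and -0.45 (SE 0.42) without D844. The other 7 group means ran from 5.76 to 10.6 CPM with overlapping ranges.

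Activin signals through type I and type II receptors to SMAD proteins and is bound by follistatins. Of 15 further genes of this pathway, 2 were increased at 5 days and none decreased, against 9.56% and 4.67% of all genes. At 8 and 28 days none passed. Fstl3, a follistatin-like activin binder, rose at 5 days (Log2FC 2.45, SE 0.35, FDR 4.06e-05), from 0.179 to 0.631 CPM in controls to 3.84, 2.37, 2.12 and 3.34 CPM. Acvr1c, the type I receptor ALK7, rose from 14.2 to 23.4 CPM in controls to 64.2, 28.8, 42.9 and 54.9 CPM (Log2FC 1.59, SE 0.30, FDR 0.00039). Neither group overlapped its controls. Both responses were larger at 5 than at 8 days in the same model (difference in Log2FC 2.49, FDR 0.0393 for Fstl3, and 2.01, FDR 0.0456 for Acvr1c), and larger than at 28 days (2.36, FDR 0.00349, and 1.84, FDR 0.00609). Without D720 both missed the FDR limit for the 5 to 8 day difference (2.5001 and 2.05, FDR 0.0688 for each). Over all genes 0.179% passed the 5 to 8 day difference and 6.18% the 5 to 28 day difference, 2.32% with the higher response at 5 days. Fst, which encodes follistatin, had 0.955 to 4.15 CPM in rAAV-OVA mice at 5 days against 0.538 to 1.72 CPM, and did not pass. Inhbb, which encodes the other beta subunit, moved the other way between 5 and 28 days (difference in Log2FC -0.89, FDR 0.0438), with 4.31 to 6.41 CPM at 5 days against 8.77 to 9.87 CPM in controls.

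Nptx2 was also far higher at 5 days. The rAAV-OVA mice at 5 days had 258, 149.9, 131 and 259 CPM, and the controls 38.9, 43.3, 27.1 and 28.7 CPM. Again every rAAV-OVA mouse at 5 days lay above all other 27 mice, the next being a rAAV-OVA mouse at 2 days with 62.6 CPM. The mean of 199 ± 68.7 CPM was 5.78 times the control mean (Log2FC 2.38, SE 0.29). At 8 days the rAAV-OVA mice had 32.3, 16.99, 40.5 and 45.0 CPM and the controls 20.1, 50.02 and 37.4 CPM, which overlap, and the Log2FC was 0.12 (SE 0.29). At 28 days the rAAV-OVA mice had 17.4, 25.7, 11.4 and 30.5 CPM, the last being D844, against 26.5 to 32.8 CPM in controls. The Log2FC was -0.65 (SE 0.28) with all mice and -1.02 (SE 0.32) without D844, where Nptx2 was past the limits as decreased.

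Of 7 genes around the pentraxins and AMPA receptors, 1 was increased at 5 days and none decreased, against 9.56% and 4.67% of all genes. It was Adam17, which encodes the metalloprotease TACE that releases pentraxin complexes from the membrane; it had 51.4, 50.9, 52.8 and 44.2 CPM against 15.2 to 25.3 CPM in controls (Log2FC 0.99, SE 0.27, FDR 0.00773). Adam17 was also increased at 8 days (1.13, FDR 0.00681) and 28 days (1.02, FDR 0.00677; 1.41, FDR 0.00121, without D844). At 8 days it did not pass in a fit of that day's mice (1.13, SE 0.35), without replicate 3 of rAAV-control at 8 days (0.78) or without replicate 3 of rAAV-OVA at 2 days (0.88). Nptx1 and Nptxr, the partners of Nptx2 in the pentraxin complex, did not pass at 5 days (Log2FC of Nptx1 -0.18, SE 0.23). At 28 days both decreased (Nptx1 -0.88, FDR 0.00698; Nptxr -0.82, FDR 0.021), as did the AMPA receptor subunits Gria1 (-0.78, FDR 0.00285), Gria2 (-0.73, FDR 0.00716) and Gria3 (-0.79, FDR 0.00156). Without D844, only Gria1 (-0.71, FDR 0.0249) and Gria2 (-0.71, FDR 0.0225) of these 5 still passed, and Nptx1 was at -0.51 and Nptxr at -0.31.

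Bdnf had a smaller excess at 5 days than Inhba and Nptx2, followed by lower levels at 8 and 28 days. Vgf, Scg2 and Penk had a like course, at 28 days in the mice other than D844. The rAAV-OVA mice at 5 days had 91.2, 52.7, 50.5 and 82.4 CPM and the controls 51.4, 44.9, 31.8 and 34.8 CPM, so 1 control lay within the rAAV-OVA range. The mean was 1.70 times that of controls, with a Log2FC of 0.57 (SE 0.25), which missed the limits. At 8 days all 4 rAAV-OVA mice were below all 3 controls, with 22.3, 18.6, 23.7 and 23.04 CPM against 33.5, 34.6 and 48.7 CPM. The Log2FC was -0.69 (SE 0.26), which missed the limits. It was past them in 9 of the 31 fits with 1 mouse left out, among them those without D720 (-0.88, SE 0.28) and without replicate 4 of rAAV-OVA at 2 days (-1.05, SE 0.29). Over the 31 fits it lay between -1.05 and -0.60, and with ashr shrinkage it was -0.34. At 28 days the rAAV-OVA mice had 17.2, 25.2, 8.98 and 8.93 CPM against 43.3, 36.6, 37.7 and 26.1 CPM, again without overlap. Over all genes, 11.9% were lower without overlap at 8 days and 14% at 28 days. The Log2FC at 28 days was -1.52 (SE 0.26), past the limits, and -0.94 (SE 0.27) without D844, still past them. In a fit of that day's mice it was -1.23 (SE 0.36), and 0 of the 6 genes passed. Both batches had the lower values in rAAV-OVA mice, with 17.2 and 25.2 against 37.7 and 26.1 CPM in batch 1 and 8.98 and 8.93 against 43.3 and 36.6 CPM in batch 2. The Log2FC was -0.54 in batch 1 alone and -2.18 in batch 2 alone, neither past the limits with 2 mice per group. By mean level, rAAV-OVA at 5 days (69.2 ± 20.7 CPM) led, the rAAV-control groups and rAAV-OVA at 2 days followed at 32.4 to 40.7 CPM with overlapping ranges, and rAAV-OVA at 8 days (21.9 ± 2.29 CPM) and 28 days (15.1 ± 7.80 CPM) came last and overlapped each other.

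Among 8 of 10 listed neurotrophin genes that were measured, 2 rose and 1 fell at 5 days, against 9.56% and 4.67% of all genes. Furin and Plat encode proteases of pro-neurotrophin cleavage, the latter tissue plasminogen activator; Furin had a Log2FC of 0.77 (SE 0.11, FDR 5.44e-05) and Plat of 0.92 (SE 0.14, FDR 5.36e-05). Plat was at 86.5, 65.3, 64.4 and 82.2 CPM, above 34.2 to 38.8 CPM in controls. Ntf3, the neurotrophin-3 gene, fell by 1.13 on the log2 scale (SE 0.31, FDR 0.00734), to between 1.51 and 3.76 CPM from 5.11 to 7.11 CPM. At 28 days Ntrk3 (-0.74, FDR 0.0099) and Sort1 (-0.71, FDR 0.00133) decreased, and without D844 none of the 8 passed. Ntrk2, the TrkB receptor gene, had 541.05 to 634 CPM in rAAV-OVA mice at 5 days and 605 to 726.02 CPM in controls, and its Log2FC was below 0.66 at every time point, with the largest, 0.43 (FDR 0.00154), at 28 days.

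The granin genes Vgf and Scg2 were higher at 5 days and lower at 8 days. Vgf had 298, 203, 206 and 310.0 CPM in rAAV-OVA mice at 5 days against 187, 172, 153 and 173 CPM in controls, a mean ratio of 1.48 (Log2FC 0.84, SE 0.20). Without surrogate variables the Log2FC of Vgf at 5 days was 0.57, below the limit. Bdnf had the larger mean ratio, 1.70, but missed the limits in the main fit. At 8 days Vgf had 116, 118, 130.3 and 114 CPM against 185, 142 and 177 CPM, the order of the groups turned round without overlap. Its Log2FC was then -0.24 (SE 0.20), and -0.49 without surrogate variables. Scg2 had 370.3, 316, 255 and 432 CPM at 5 days against 229, 229.5, 178 and 161 CPM, a mean ratio of 1.72 (Log2FC 0.99, SE 0.25). At 8 days it had 122, 132, 147 and 150.2 CPM against 172, 178 and 211 CPM (Log2FC -0.27, SE 0.26). That Log2FC was -0.44 without surrogate variables and -0.02 without replicate 3 of rAAV-OVA at 2 days. These lower values at 8 days did not pass the limits. The groups lay apart in this direction for 4 of the 6 genes (Bdnf, Vgf, Scg2 and Penk), against 11.9% of all genes. The difference in Log2FC between both days did not pass for Vgf (1.07, FDR 0.169) or Scg2 (1.26, FDR 0.217). Without D844 it passed for Vgf (0.94, FDR 0.048) but not for Scg2 (1.07, FDR 0.0552). Both genes were chosen with their course at 5 days known, so these FDRs are a description.

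At 28 days both granin genes split within the rAAV-OVA group. Vgf had 99.6, 129 and 88.6 CPM in 3 mice and 294 CPM in D844, with 156 to 215 CPM in controls. Scg2 had 116, 153 and 83.7 CPM in the same 3 mice and 378 CPM in D844, with 194 to 221 CPM in controls. All 3 mice other than D844 were therefore below every control for both genes, and D844 was above every control. D845, the lowest of these 3 for both genes, had 660 CPM of summed fibroblast and meningeal markers, against 76.1 to 103 CPM in controls. The part of that tissue in its values was not tested. Without D845 the Log2FC of Nptx2 at 28 days was -0.41. The Log2FC of Scg2 was -0.11 (SE 0.24) with D844 and -0.70 (SE 0.19), past the limits, without it. That of Vgf was -0.13 (SE 0.19) and -0.37 (SE 0.17). Without D844 the Log2FC at 5 days also moved, to 0.75 (SE 0.15) for Scg2 and to 0.61 (SE 0.13) for Vgf, which then missed the limit of 0.66. In that fit the surrogate variables were estimated again without this mouse.

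Other genes of granin storage and peptide processing moved in both directions. Of 11, 2 were increased and 1 decreased at 5 days, against 9.56% and 4.67% of all genes. Chga, which encodes chromogranin A, had 284, 147, 178 and 217 CPM against 103 to 108 CPM in controls (Log2FC 1.24, SE 0.17, FDR 2.85e-05). Its response at 5 days was larger than at 8 days (difference 1.37, FDR 0.0176) and at 28 days (1.22, FDR 0.00196). Pcsk1, the prohormone convertase that cuts granins and proenkephalin, had a Log2FC of 0.96 (SE 0.28, FDR 0.0112), although its groups overlapped, with 22.6 to 40.3 against 15.7 to 23.9 CPM. Cadps2, a factor of dense-core vesicle release, decreased (-0.75, FDR 0.0143; -0.64 without D844, outside the limits). Chgb, the chromogranin B gene, did not pass at 5 days and decreased at 28 days (-0.99, FDR 0.000143; -0.66, FDR 0.0066, without D844), and so did Pcsk2 (-0.69, FDR 0.000773; -0.67, FDR 0.00799).

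Penk was higher at 5 days in all rAAV-OVA mice, but unevenly. At 5 days the rAAV-OVA mice had 75.3, 40.3, 41.6 and 52.1 CPM and the controls 31.8, 33.5, 29.4 and 29.2 CPM, so all 4 were above all controls and 1, D725, was well above the other 3. Of the 5 striatal markers, Drd1 (2.09, FDR 0.0226) and Adora2a (1.55, FDR 0.0364) were increased at 5 days as well, and D725 had the most Drd1 of the 4, with 16.8 CPM. The 5 summed to 20.1 to 33.04 CPM, highest in D725, against 16.5 to 19.996 CPM in controls without overlap, and their part in the Penk values was not tested. At 8 days all 4 rAAV-OVA mice were below all 3 controls, with 20.4, 16.1, 18.2 and 19.5 CPM against 22.2, 29.1 and 29.999 CPM. At 28 days 3 rAAV-OVA mice had 16.2, 19.1 and 18.9 CPM, below the controls at 24.5 to 27.004 CPM, and D844 had 668 CPM. With D844 the fitted Log2FC was 1.49 (SE 0.67) at 5 days, -0.24 (SE 0.69) at 8 days and 2.40 (SE 0.65) at 28 days, the last past the limits. Without it the values were 0.62 (SE 0.16), -0.44 (SE 0.17) and -0.61 (SE 0.20), none past the limits. Without D720 the value at 8 days was 0.33 (SE 0.79). The increase of Penk at 28 days was therefore that of 1 mouse. The fitted value also turned on other groups, at 0.41 without replicate 4 of rAAV-OVA at 2 days. The call was lost as well without replicate 3 of rAAV-OVA at 2 days or replicate 3 of rAAV-control at 28 days.

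Mouse D844 carried striatal transcripts. Drd2, Adora2a and Gpr6, which mark striatal neurons that express Penk, were at 99.9, 112 and 34.2 CPM, and Drd1 and Rgs9 at 92.5 and 122 CPM. In the other 30 mice the 5 markers summed to between 12.998 and 33.04 CPM. Its interneuron markers summed to 1684 CPM, against 315 to 473 CPM in the other 3 mice of its group. It also had the fewest immune transcripts of its group, with 35.8 CPM of T cell markers against 309.5 to 722.8 CPM, and 77.4 CPM of monocyte markers against 712 to 1549 CPM. Its CA1 markers summed to 267 CPM, against 306 to 455 CPM in the other 3, and its dentate granule markers to 451 CPM, against 157 to 449 CPM. The part of these transcripts in its Penk, Vgf and Scg2 values was not tested.

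**Figure D2:**
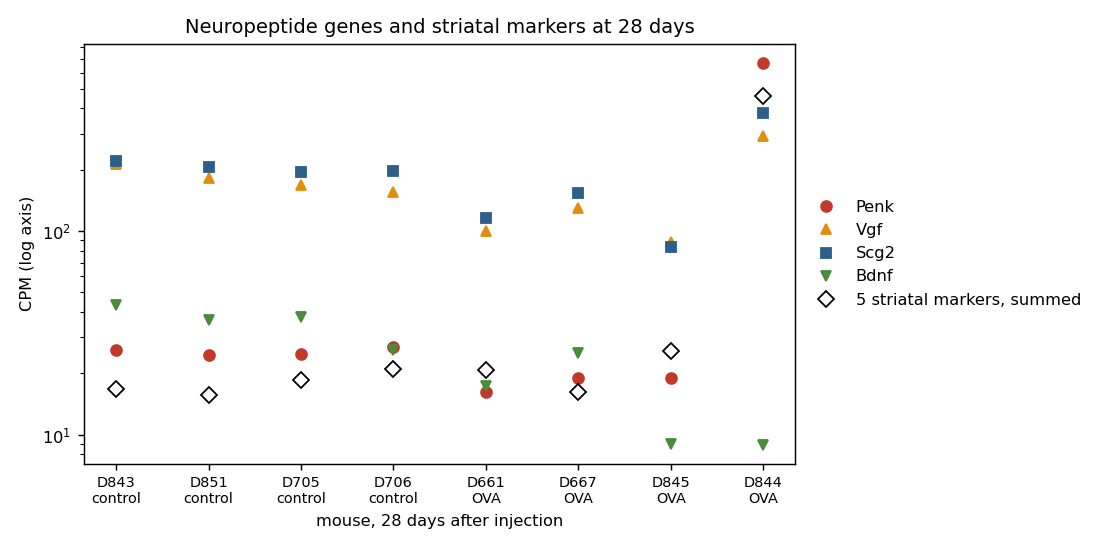
CPM on a log axis of Penk, Vgf, Scg2 and Bdnf and the sum of 5 striatal marker genes in each of the 8 mice at 28 days. In D844 Penk is at 668 CPM and the striatal sum at 460.3 CPM, while the other 3 rAAV-OVA mice have 16.2 to 19.1 CPM of Penk.

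The other opioid genes were mixed, and 9.56% of all genes were increased and 4.67% decreased at 5 days. Of 7 at 5 days, Pnoc, the nociceptin precursor, rose (Log2FC 1.32, SE 0.28, FDR 0.00132), with 17.5, 12.3, 12.98 and 18.4 CPM against 6.76 to 8.57 CPM, and Pomc fell (-1.06, SE 0.34, FDR 0.0218) from 1.06 to 1.34 CPM in controls to 0.236 to 0.832 CPM. At 28 days Pdyn, the prodynorphin gene of granule cells (1.73, FDR 0.000764), Oprk1, the kappa receptor gene (1.88, FDR 0.00692), and Pomc (0.95, FDR 0.0449) were increased. D844 had 109 CPM of Pdyn and 12.8 CPM of Oprk1, and without it none of the 7 passed. The other 3 rAAV-OVA mice had 26.1 to 49.1 CPM of Pdyn, above 15.4 to 17.4 CPM in controls, with a Log2FC of 0.74 (FDR 0.0869).

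**Figure D3:**
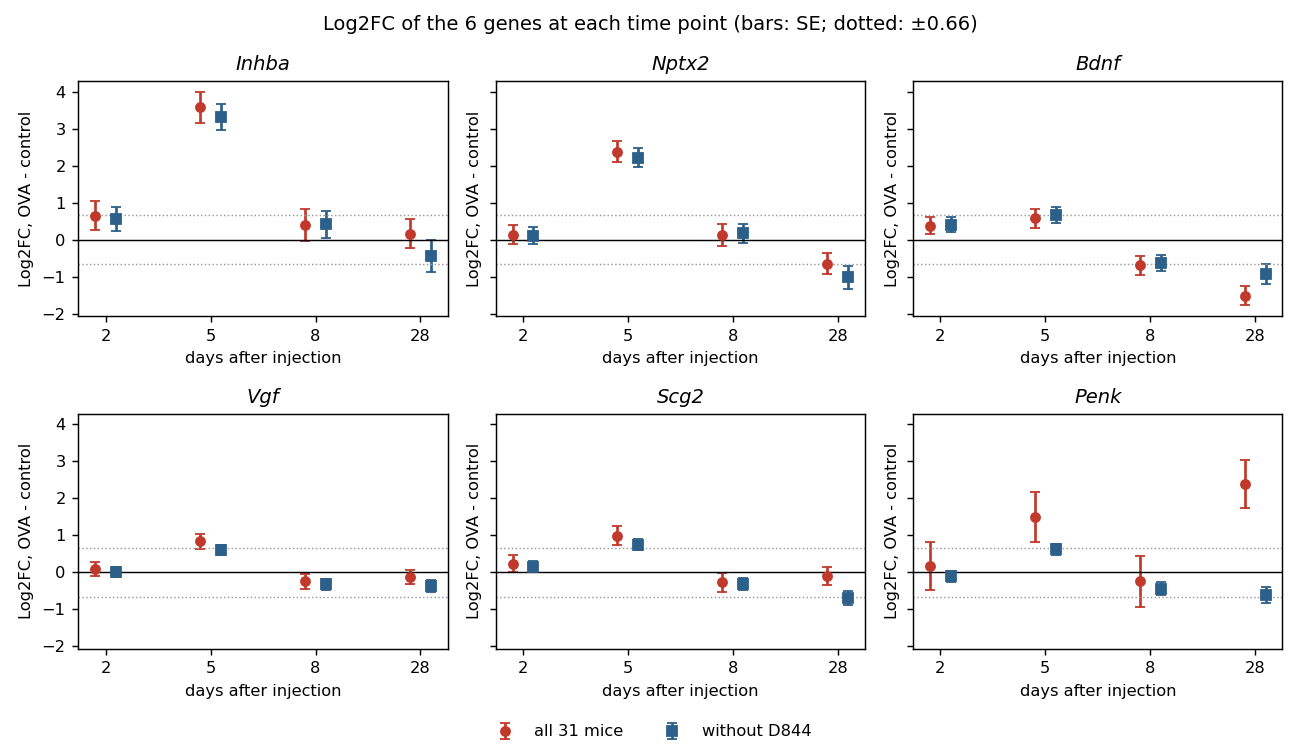
Log2FC of rAAV-OVA against rAAV-control with its SE for each gene by days after injection, from all 31 mice (red circles) and without D844 (blue squares); dotted lines mark 0.66 and its negative. Inhba and Nptx2 keep values above 2 at 5 days in both fits, and Penk at 28 days moves from 2.40 to -0.61.

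Taking as a peak at 5 days only that the rAAV-OVA group at 5 days had the highest of the 8 means and was increased past the limits then and at no other time point past them in either direction, 4 of the 6 genes qualified, Inhba, Nptx2, Vgf and Scg2. Over all genes 226 did so, or 1.44%. Bdnf missed the limits at 5 days and was decreased at 28 days. Penk missed the FDR limit at 5 days and, through D844, had its highest mean at 28 days. Without D844 the FDR of Penk at 5 days was 0.0045, and it missed only the Log2FC limit (0.62). The values next to the limits were those of Scg2 (FDR 0.0049) and Vgf (Log2FC 0.84) inside and of Bdnf (Log2FC 0.57, FDR 0.0871) and Penk (FDR 0.0971) outside. Only Inhba and Nptx2 had all 4 rAAV-OVA mice at 5 days above all other 27 mice, which held for 0.588% of all genes. For Scg2 only D844 lay above the lowest of the 4, for Penk 2 mice, for Bdnf 2 mice and for Vgf 6 mice. Without D844 the same definition was met by Inhba alone, since Nptx2 and Scg2 were then decreased at 28 days and Vgf missed the Log2FC limit at 5 days. Bdnf was then past the limits at 5 days (Log2FC 0.66, SE 0.21) and at 28 days in the other direction. With edgeR on all mice but without surrogate variables, or with the batch label in their place, Vgf missed it as well and the other 3 qualified. With only the mice of each day in the fit, Bdnf qualified in place of Vgf, and without replicate 2 of rAAV-OVA at 2 days Nptx2 did not qualify.

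Activity genes beyond the 6 were taken from a list of 13 late response genes and a list of 17 immediate early genes. The median Log2FC of the late response genes at 5 days was 0.81, against -0.01 for all genes. Of them 7 rose and none fell, against 9.56% and 4.67% of all genes. They were Homer1 (0.81, FDR 0.0328), Ptgs2 (0.95, FDR 0.0243), Gadd45b (1.06, FDR 0.000419), Rgs2 (1.04, FDR 0.0013), Rgs4 (1.26, FDR 0.00267), Gpr3 (1.18, FDR 0.000182) and Crem (1.13, FDR 9.87e-06). Homer1 was at 0.48, below the limit, without replicate 1 of rAAV-OVA at 5 days. Crem encodes a CREB-family factor and its rAAV-OVA mice had 33.4, 21.2, 25.9 and 30.8 CPM against 10.7 to 12.2 CPM. At 8 days none of the 13 passed. At 28 days 1 rose and 6 fell, and without D844 only Nrn1 (-0.79, FDR 0.04) and Plk2 (-0.93, FDR 0.000796) passed, both decreased. The response of 9 of the 13 was higher at 5 than at 28 days by the test of the difference, the largest being that of Ptgs2, the cyclooxygenase-2 gene (2.31, FDR 0.00174), and 8 of the 13 without D844.

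Of the 17 immediate early genes, 4 rose at 5 days and none fell (5 and 1 without D844), against 9.56% and 4.67% of all genes. These were Fos (1.76, SE 0.36, FDR 0.00076), Fosb (1.78, SE 0.33, FDR 0.000397), Fosl2 (1.49, SE 0.16, FDR 3.11e-06) and Npas4 (2.01, SE 0.51, FDR 0.00536). Fosl2 had 137, 117, 123 and 148 CPM against 39.3 to 63.6 CPM, and its response was larger at 5 than at 8 days (difference 1.23, FDR 0.0176). Fos had 50.6, 43.7, 45.7 and 97.6 CPM against 14.3 to 23.7 CPM. Npas4 was uneven, with 14.2 CPM in one rAAV-OVA mouse, within the 12.6 to 17.4 CPM of controls, and 47.5, 34.6 and 128 CPM in the others, and without the mouse at 128 CPM its Log2FC was 1.33, still past the limits. Arc, a marker of recent firing, overlapped between the groups, with 111 to 255 against 156 to 279 CPM. At 28 days 3 of the 17 were increased, Egr2 (1.91, FDR 0.00146), Ier2 (1.01, FDR 0.0307) and Btg2 (0.72, FDR 0.0197), and Nr4a2 (-0.86, FDR 0.0496) and Nr4a3 (-0.68, FDR 0.0158) were decreased. Without D844 the same 3 passed (Egr2 1.91, Ier2 1.70 and Btg2 0.94), Nr4a2 (-0.03) and Nr4a3 (-0.48) did not, and Egr4 was decreased (-1.01, FDR 0.0137). Ier2 was at 0.58, below the limit, without replicate 1 of rAAV-control at 8 days. At 8 days Egr2 passed (1.56, SE 0.45, FDR 0.0191), but not without D720 (1.50, FDR 0.0558), without surrogate variables (1.27) or in a fit of that day's mice (1.29).

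**Figure D4:**
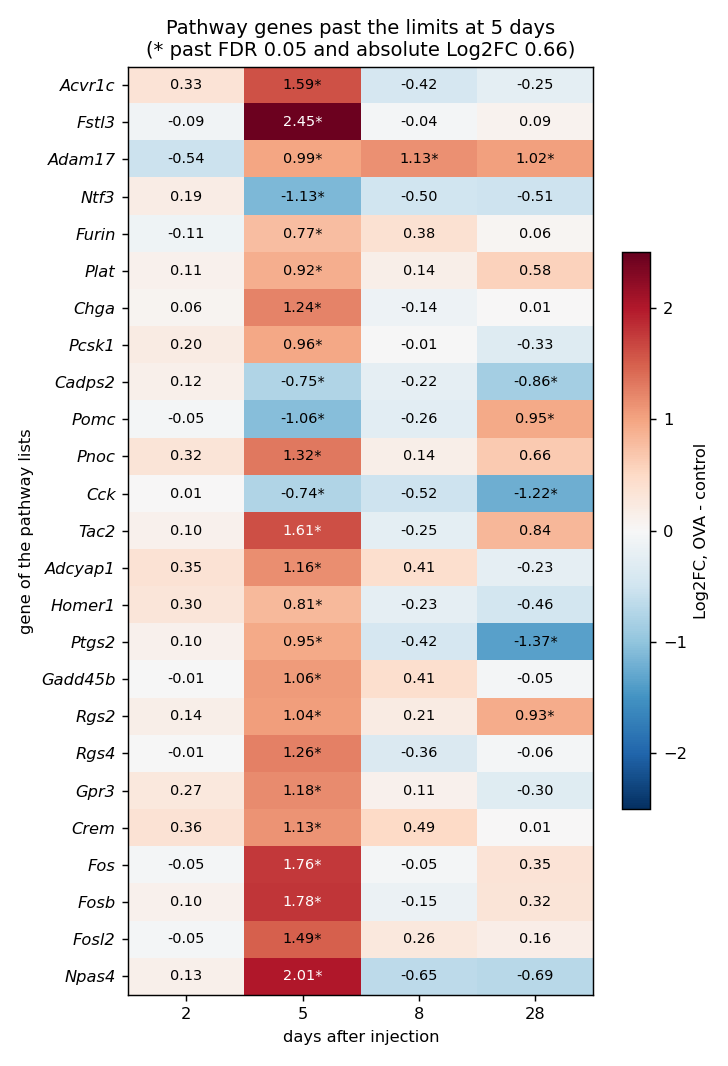
Log2FC of rAAV-OVA against rAAV-control at the 4 time points for the 25 pathway genes past the limits at 5 days; colour and number give the Log2FC and an asterisk marks a value past the limits. Increased genes such as Fstl3 (2.45) and Chga (1.24), have values of -0.04 and -0.14 at 8 days, and Adam17 is at -0.54 at 2 days and between 0.99 and 1.13 at the later time points.

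Over the 8 pathway lists together, 91 of 96 genes were measured. At 5 days 21 were increased and 4 decreased, at 8 days 2 and 0, at 28 days 9 and 21, and at 2 days 0 and 0. Without D844 the numbers were 22 and 3 at 5 days, 3 and 3 at 8 days and 4 and 8 at 28 days, so the number at 28 days fell from 30 to 12. Over all genes 14.2% passed at 5 days (4.67% as decreased), 9.94% at 8 days (9.36% as increased) and 17.6% at 28 days, or 14.7% without D844. In batch 1 alone at 28 days 1 of the 91 passed and in batch 2 alone 0, with 2 mice per group in each. The response was higher at 5 than at 8 days for 4 genes and lower for 0, and higher at 5 than at 28 days for 22 and lower for 3. With single mice left out, the 4 genes of the 5 to 8 day difference became 1 to 6 and the 25 of the 5 to 28 day difference 13 to 29. Without D844 all 4 genes of the former passed, joined by Fosb (1.64, FDR 0.0286). Without D720 only Chga (1.37, FDR 0.0403) and Fosl2 (1.23, FDR 0.043) did, and 1 of the 91 genes, Adam17, passed at 8 days.

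Among 13 further neuropeptide genes measured, 2 rose and 1 fell at 5 days, against 9.56% and 4.67% of all genes. Tac2, the neurokinin B gene, rose (1.61, SE 0.37, FDR 0.00244), to 3.10, 2.65, 5.54 and 7.52 CPM from 1.83 to 3.12 CPM. Adcyap1, which encodes PACAP, rose as well (1.16, FDR 0.0123), with overlapping groups, and Cck fell (-0.74, FDR 0.0101; -0.49 without D844, outside the limits). Npy, which is known to rise in granule cells after seizures, had 54.3, 30.2, 29.6 and 44.0 CPM against 33.5 to 36.1 CPM, and did not pass (Log2FC 0.20, SE 0.18, FDR 0.429). At 28 days Cort (-1.96, FDR 0.00223) and Cck (-1.22, FDR 0.000479) decreased and Tac1 increased (1.83, FDR 0.0105). Without D844 only Cck of these 3 passed (-0.69, FDR 0.0109), and Tac1 was at -0.43.

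The 4 rAAV-OVA mice at 5 days differed among themselves. D725 and D787 had the 2 highest values of each, and D726 and D786 the 2 lowest. D787 was highest for Inhba, Nptx2, Vgf and Scg2 and D725 for Bdnf and Penk. For Bdnf, D725 was at 1.16 and D787 at 1.02 on the log2 scale relative to the control mean, while D726 was at 0.37 and D786 at 0.31. Fosb, Fosl2, Crem and Chga had the same pair on top, whereas Npas4 separated them, at -0.08 in D725 and 3.09 in D787.

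**Figure D5:**
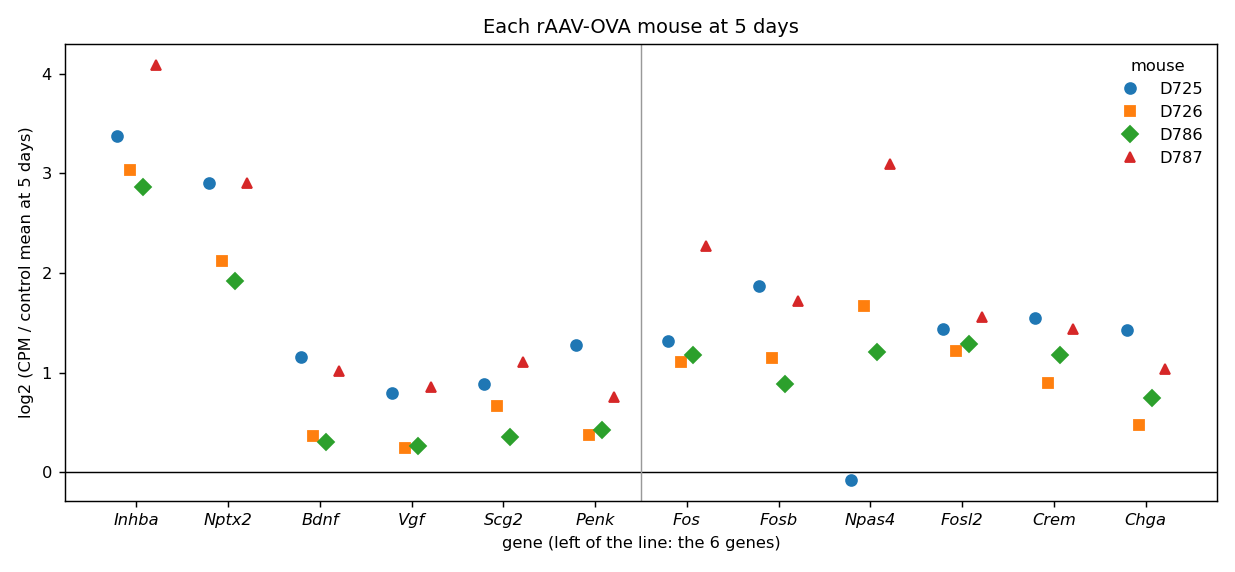
Log2 ratio of CPM to the mean of the 4 rAAV-control mice at 5 days, for the 6 genes and for Fos, Fosb, Npas4, Fosl2, Crem and the granin gene Chga in each rAAV-OVA mouse at 5 days. All 24 points of the 6 genes are above 0, from 0.24 for Vgf in D726 to 4.09 for Inhba in D787.

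Other cell types changed beside these genes. At 5 days the 6 excitatory neuron markers summed to between 4642 and 6069 CPM in rAAV-OVA mice and between 7650 and 9792 CPM in controls, and 3 of the 6 were decreased. The 4 CA1 markers summed to 378 to 450.3 CPM against 643 to 701.8 CPM, with 1 decreased. The 5 dentate granule cell markers summed to 304 to 367 against 418 to 561 CPM, with 0 past the limits (1 decreased without D844). Oligodendrocyte markers were lower as well (2586 to 3821 against 4040 to 6928 CPM, 3 of 6 decreased). Microglial markers were higher (1068 to 1088 against 486 to 767 CPM, 3 of 6 increased), and so was the sum of the astrocyte markers (3634 to 4778 against 2183 to 3395 CPM), though the single one of the 6 past the limits, Gja1, was decreased. At 28 days 5 of the 6 excitatory markers were decreased, with sums of 2425 to 6096.5 against 6813 to 8015 CPM, beside the lower Bdnf. Without D844 it was 1 of the 6. At 8 days, beside the lower Bdnf, Vgf, Scg2 and Penk, the CA1 markers summed to 406 to 525 against 600 to 713 CPM. None of them passed the limits. The sums of excitatory markers (5526 to 7388 against 7032 to 10094 CPM) and dentate granule markers (242 to 480 against 365 to 659 CPM) overlapped then. The 3 T cell markers measured summed to 115 to 176 CPM at 5 days, 181 to 589 CPM at 8 days and 35.8 to 722.8 CPM at 28 days, against 1.51 to 5.01 CPM in controls at 5 and 28 days. Cd8a among them and the monocyte marker Ccr2 were each at 0 in 1 of the 31 mice. Of the 7 monocyte markers 6 were increased at 5 days, with sums of 567 to 1302 against 16.3 to 164 CPM. Choroid plexus markers were lower in rAAV-OVA mice at 5 days for 5 of 5 genes, with sums of 42.1 to 129.7 against 40.2 to 3772 CPM, which overlap. The part of these shifts in the values of the 6 genes, and of the pathway genes including the activity genes, was not tested.

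Likeness was described by Pearson's r of log2 CPM (prior count 2) over the 31 mice, which share their groups and libraries. Inhba and Nptx2 were nearest to each other among all genes (r = 0.88), and Fosl2 was next for Inhba (0.87), followed by Pmepa1 (0.86), while Skil (0.87) and Tvp23a (0.86) followed for Nptx2. Vgf and Scg2 were also nearest to each other (0.92), with Marchf4 (0.90) and Ptprn (0.90) next for Vgf and Chga (0.90) and Acvr1c (0.89) next for Scg2. Bdnf was nearest to Sema3e (0.93), Lingo1 (0.92) and Gpc1 (0.92). Penk was nearest to Syndig1l (0.93), Rgs9 (0.90) and Drd1 (0.89), and without D844 to Pcdh8 (0.90), Acvr1c (0.89) and Acvr1 (0.88). Among the 15 pairs of the 6 genes r ran from -0.03 to 0.92, and without D844 from 0.59 to 0.96, where Bdnf and Scg2 were the closest pair.

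In deviations from the group means, which leave out the course over time, the nearest genes were Slc35f3 for Inhba (0.87), Plk2 for Nptx2 (0.82), Chgb for Bdnf (0.89), Inpp5f for Vgf (0.91), St8sia3 for Scg2 (0.92) and Syndig1l for Penk (0.96). Without D844 the nearest genes were Wipf3 for Nptx2 (0.82), Rtn4rl2 for Bdnf (0.90), Soga3 for Vgf (0.86) and Ptprn for Scg2 (0.87), with Slc35f3 for Inhba (0.83) and Syndig1l for Penk (0.87) as before. Inhba and Nptx2 had an r of 0.70 by this measure and of 0.41 over the 27 mice other than rAAV-OVA at 5 days.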

How the data were processed

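Left hippocampi of 31 mice were profiled by bulk mRNA sequencing, 1 library per mouse. The estimated counts per gene were deposited by the authors as 1 table, rounded to whole numbers and filtered at 15 or more counts in at least 15 mice. Per the submitters' processing notes, reads were quantified with Salmon 1.8.0 and analysed with DESeq2 1.36.0. Transcript assignment of this kind shares out reads between near-identical sequences, and gene totals do not show which Bdnf start was used. The counts were grouped by vector and day from the labels and fitted in R 4.3.3 with edgeR 4.0.16 (TMM, robust quasi-likelihood F test, Benjamini-Hochberg FDR), with 8 groups and 2 surrogate variables from sva 3.50.0. CPM were scaled by TMM. The script was tested on simulated counts. DESeq2 1.42.0, ashr 2.2.63, other covariates, filters and samples were tried as alternatives. The 45 pairs of mice within groups differed beyond sampling noise, with a mean chi-square per gene of 11.88 or more.

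The 6 genes, the lists and the tests were chosen with earlier results of these data known. Named genes are the 6, members of the lists past the limits or on which a result turns, and the 3 genes nearest to each of the 6. Genes such as Fst, Ntrk2, Arc and Npy, which did not pass, were named for their known roles after their values were seen. Mice of a group are separate animals. Promoter windows came from RefSeq tables of GRCm38.p6, a build other than that of the counts, so no coordinates were joined to the measurements. Some list genes are not reported here and enter no list count or marker sum.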

Additional observations from a re-analysis of the deposited data

Results flagged for a closer look

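Penk in mouse D844 (rAAV-OVA, 28 days) was at 668 CPM, and its gap to the nearest mouse was 0.996 of the range of its group, above Dixon's limit for a group of 4. Dixon's limit, not a gap of this size, is passed by chance in about 1 of 20 groups, and 42 groups were examined.

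Vgf, Scg2 and Penk were higher than controls in all rAAV-OVA mice at 5 days and lower in all at 8 days. Of all genes, 21% were higher without overlap at 5 days and 11.9% lower without overlap at 8 days. The share of genes doing both was not counted. The difference in Log2FC between these days was 1.07 for Vgf, 1.26 for Scg2 and 1.73 for Penk. By edgeR's test over all genes it did not pass for any of them (FDR 0.169, 0.217 and 0.742). Without D844 it passed for Vgf (0.94, FDR 0.048), but not for Scg2 (1.07, FDR 0.0552) or Penk (1.06, FDR 0.0712). These genes were chosen with their course at 5 days known, so the FDRs are a description and no evidence.

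Among pathway genes, the response at 5 days exceeded that at 8 days by edgeR's test of the difference for Acvr1c (2.01, FDR 0.0456), Fstl3 (2.49, FDR 0.0393), Chga (1.37, FDR 0.0176) and Fosl2 (1.23, FDR 0.0176); without D720 only Chga and Fosl2 passed. Against 28 days, the activin genes Acvr1 (0.69, FDR 0.0347), Acvr1c (1.84, FDR 0.00609), Fstl3 (2.36, FDR 0.00349) and Smad3 (0.72, FDR 0.0406) had the larger response at 5 days, and Inhbb the smaller (-0.89, FDR 0.0438). The response was also larger at 5 days for Ntrk3 (0.91, FDR 0.0422), Furin (0.71, FDR 0.00522), Chga (1.22, FDR 0.00196), Pcsk1 (1.29, FDR 0.0266), Oprd1 (0.89, FDR 0.024) and Npy (0.76, FDR 0.0472), and smaller for Cpe (-0.76, FDR 0.00127) and Pomc (-2.01, FDR 0.00938). The late response genes were Homer1 (1.27, FDR 0.0338), Nrn1 (1.34, FDR 0.00755), Ptgs2 (2.31, FDR 0.00174), Gadd45b (1.11, FDR 0.0102), Plk2 (0.99, FDR 0.00751), Sorcs3 (1.198, FDR 0.00178), Rgs4 (1.32, FDR 0.0352), Gpr3 (1.48, FDR 0.00168) and Crem (1.12, FDR 0.000836). The immediate early genes were Fosb (1.47, FDR 0.038), Fosl2 (1.33, FDR 0.000541) and Npas4 (2.70, FDR 0.0163). Without D844, Acvr1, Smad3, Ntrk3, Furin, Pcsk1, Oprd1, Npy and Nrn1 no longer passed the difference between 5 and 28 days.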

How the results depend on the processing

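Of 960 alternative values of the 24 Log2FC of the 6 genes, 903 stayed within the spread between replicates, 55 moved beyond it, 33 of them for Penk, and 2 reversed a value past the limits, both for Penk at 28 days; values not past them, such as Inhba at 28 days (0.16, and -0.45 without D844), also crossed 0. Most of the 960 came from fits with 1 mouse left out, often a mouse of another day. The spread at 28 days includes D844, so staying within it does not mean that a call was kept. Scg2 at 28 days, for 1, stayed within it at -0.70 without D844 (-0.11 with all mice), but was then past the limits. No paired analysis was possible because no mouse shares its number with one of another group. The cause of the changes below was not tested. Without surrogate variables, 400 of all genes and 12 pathway genes passed the 5 to 28 day difference (967 and 25 as reported), 15 and 2 the 5 to 8 day difference (28 and 4), and 1 pathway gene passed at 8 days (2). With the batch label instead, these were 494 and 14, 18 and 2, and 4. DESeq2's Wald test gave 64 and 9 for the 5 to 8 day difference, 10 genes at 2 days (0) and 1 of the 6 genes at 8 days (0). With ashr shrinkage the values were 641 for the 5 to 28 day difference, 53 and 8 for the 5 to 8 day difference, 10 at 2 days and 18 pathway genes at 28 days (30). With 15 counts in every mouse, 836 of all genes (1556) and 1 of the 6 passed at 8 days. In fits of a single day's mice, 0 of all genes and 0 pathway genes passed at 8 days, and 13 pathway genes and 0 of the 6 at 28 days (2 of 6). Batch 1 alone at 28 days gave 1121 of all genes (2750), 1 pathway gene and 0 of the 6, and batch 2 alone 0, 0 and 0. In batch 1 alone Penk (-0.51), Tac1 (-0.93), Oprk1 (-0.10), Nptxr (0.022) and Ptgs2 (0.0073) changed sign at 28 days, as did Penk (-0.61) and Tac1 (-0.43) without D844.

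With each mouse left out, the 5 day counts were 1836 to 2565 of all genes, 22 to 28 pathway genes and 4 to 5 of the 6. At 28 days they were 1748 (without rAAV-OVA 2 d replicate 4) to 3215, 12 (without D844) to 33, and 1 to 3, and at 8 days 505 (without rAAV-control 8 d replicate 3) to 1860, 0 to 6, and 0 to 1. At 2 days they were 0 to 3, 0 to 0, and 0 to 0. The 5 to 28 day difference ran from 232 (without rAAV-OVA 2 d replicate 4) to 1437 and from 13 to 29, and the 5 to 8 day difference from 6 (without rAAV-OVA 2 d replicate 3) to 34 and from 1 (without rAAV-control 5 d replicate 4) to 6. The Log2FC at 28 days ran from -0.61 to 3.13 for Penk and from -0.43 to 2.44 for Tac1. The number that peak at 5 days only ran from 1 (without D844) to 4. Genes near 1 CPM, such as Fst, Pomc and Oprk1, rest on few counts at these depths. With single mice left out, Homer1, Ptgs2, Pomc, Cadps2, Cck, Adcyap1 and Pcsk1 at 5 days each lost their call in at least 1 case, and so did Ier2, Btg2, Gria1, Gria2 and Gria3 at 28 days.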
